A study of Gallus gallus with 9 samples.

Results

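The Wnt pathway genes described here are 56 of the 13009 genes that a probe set with a single gene symbol represents on the Affymetrix Chicken Genome array. They were selected by gene name, with earlier results of these data known. Symbols beginning with WNT, FZD, DKK, SFRP, DVL, TCF7 or AXIN were taken, together with LRP5, LRP6, CTNNB1, APC, GSK3A, LEF1, LGR4, LGR5, RSPO1, RSPO3, ZNRF3, WLS, NKD1, TLE1 and TLE4. GSK3B, RNF43 and PORCN also belonged to the list and were not analysed here. A gene was represented by the brightest of its probe sets on average over all arrays, and 30 of the 56 genes had more than 1 among 114 probe sets.

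Wnt proteins are secreted, lipid-bearing signals that the carrier WLS brings to the cell surface. They bind Frizzled receptors, in the canonical branch together with the co-receptors LRP5 or LRP6, and the Dishevelled proteins (DVL) pass the signal on. Without a Wnt signal, a complex of AXIN, APC and the GSK3 kinases marks beta-catenin (CTNNB1) for destruction. With it, beta-catenin enters the nucleus, joins TCF and LEF factors and displaces TLE corepressors, and the targets include the feedback inhibitors AXIN2 and NKD1. In the mouse, Wnt signalling acts before germ cells are set aside in the embryo and also influences the growth of germ cells later on.

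The cells were chicken primordial germ cells (PGCs), the precursors of eggs and sperm, grown without feeder cells from the blood of Korean Oge (KO) embryos at stage 14 to 15 (embryonic day 2.5). Embryos of both sexes were mixed, and the medium of every group contained fetal bovine serum and chicken serum. The RAW cells were kept in 10 ng/ml human basic fibroblast growth factor (bFGF), the growth factor of their medium. The -bFGF cells had spent 24 h without bFGF, and the +bFGF cells had received 10 ng/ml again for a further 24 h. Each group had 3 arrays. The methods speak of different treated cell samples and of repeated experiments without saying whether each array came from a culture of its own, so p-values measure only the spread between these samples, which may be technical. Each step also added 24 h in culture, and this time and the change of bFGF cannot be told apart.

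Withdrawal is the comparison of -bFGF with RAW, replacement that of +bFGF with -bFGF, and the net change that of +bFGF with RAW. Withdrawal and replacement share the -bFGF arrays, and so their values are given side by side for each gene. Values are linear MAS5 intensities, scaled by the authors so that every array had the same trimmed mean of 500.1. A probe set's brightness depends on its sequence as well as on the transcript, so intensities are compared only between groups for 1 probe set. Log2 changes were tested with limma in 1 fit of 9 arrays over the 19220 probe sets with a mean intensity of at least 72.4, and the threshold for a risen or fallen gene was 0.05 after Benjamini-Hochberg adjustment. Standard errors (SE) come from that fit. The RNA came from whole cultures, in which fewer cells of a type and less RNA per cell cannot be told apart.

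The arrays of each group resembled one another more than those of other groups, with correlations of log2 values of 0.9875 to 0.9913 within and 0.9789 to 0.9872 between groups. Of 8 PGC markers, 7 lay above background on all 9 arrays, including DDX4 and DAZL, and SOX2 did not. Their summed intensity was 84919 to 88606 in RAW, 71775 to 83571 in -bFGF and 78802 to 84794 in +bFGF, and DAZL and ITGB1 were called fallen on withdrawal and ITGA6 on replacement (by 0.20 on the log2 scale, adjusted p = 0.0205) and in the net change (by 0.22, adjusted p = 0.0216). Of 18 markers of blood and endothelial cells, 4 lay above background on all arrays, and 0 of the 5 tested were called by limma on withdrawal or replacement, with 1 and 0 at an unadjusted p under 0.05. Of all 9125 genes tested, 12.8% and 8.23% were called, and 2594 and 2035 had an unadjusted p under 0.05. With only 5 markers tested, the counts cannot show whether the content of such cells changed. Most of the 18 were too dim to be tested. Their summed intensities in RAW and -bFGF were 195.6 to 229.9 and 160 to 170.7 for endothelial markers, and 250.5 to 332.8 and 154.8 to 250.5 for erythroid markers. The thrombocyte and leukocyte sums of these groups overlapped. The part of such cells in the Wnt values was not tested. The log2 ratio of the 3' to the 5' actin probe sets, a measure of RNA integrity, was 0.702 to 0.779 in -bFGF and 0.334 to 0.587 in +bFGF, against 0.622 to 0.733 in RAW, and the +bFGF arrays overlapped neither of the other groups. Its part in the replacement and net-change results was not tested.

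After 24 h without bFGF, 5 Wnt pathway genes had fallen, namely the receptors FZD8 and FZD7, the Wnt-binding antagonists SFRP1 and SFRP2 and the corepressor TLE4. The 4 that had risen were the feedback inhibitor NKD1, the ligand WNT5B, the carrier WLS and DKK3. After bFGF was given back, FZD8, SFRP1, TLE4 and WNT5A rose, and NKD1, AXIN2, LGR4, RSPO3 and FZD1 fell. FZD8 showed the largest change in both comparisons, 3.36-fold down and 3.28-fold up. In the net change FZD1, LGR4, SFRP1 and SFRP2 were lower, and no member was called higher by limma.

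Of the 56 genes, 34 were bright enough to be tested and 22 were not. The 9 members called on withdrawal are 26.5% of those tested, beside 12.8% of all 9125 genes tested. Fallen members make up 14.7% against 5.99% of all genes, and risen members 11.8% against 6.83%. On replacement 9 members were again called, 26.5% beside 8.23% of all genes, with 14.7% fallen against 4.21% and 11.8% risen against 4.02%. In the net change 4 members were called, 11.8% beside 3.47% of all genes, all of them fallen against 1.85% of all genes. The count risen in the net change was 0 by limma, where 1.62% of all genes had risen. At an unadjusted limma p under 0.05, 2 and 7 of the 34 members were higher and lower, beside 1859 of all 9125 genes in either direction. The count risen was also 0 by the criteria of the study's methods and 1 (DKK3) when the probe sets of a gene were averaged. The median log2 change of the tested members was -0.11 on withdrawal and -0.04 on replacement, against 0.03 and -0.02 over all genes, and the median size of the change was 0.22 and 0.20 against 0.13 and 0.11. The groups did not overlap for 19 members on withdrawal (55.9%, against 35.4% of all genes), for 14 on replacement (41.2%, against 27.2%) and for 7 in the net change (20.6%, against 25.0%).

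Some of these counts moved when an array was left out, as did the counts over all probe sets. The 4 risen on withdrawal became 2 without RAW 1, RAW 2, -bFGF 1 or -bFGF 2, and 1 without -bFGF 3. The 5 fallen on replacement became 3 without RAW 2, 2 without -bFGF 2 or -bFGF 3, and 1 without -bFGF 1, +bFGF 2 or +bFGF 3. The 4 fallen in the net change became 2 without RAW 2 or +bFGF 2. Over all 19220 probe sets tested, 1038 had risen on withdrawal, and 561 to 642 without 1 of the same arrays. Fallen on replacement were 657, and 332 to 589 without 1 of the arrays named for it. Fallen in the net change were 335, and 112 without RAW 2 or 132 without +bFGF 2. The calls that held when any 1 array was left out were those of FZD8, SFRP1 and NKD1 in both comparisons, of SFRP2 and TLE4 on withdrawal, of WNT5A on replacement, and of SFRP1 and SFRP2 in the net change.

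**Figure D1:**
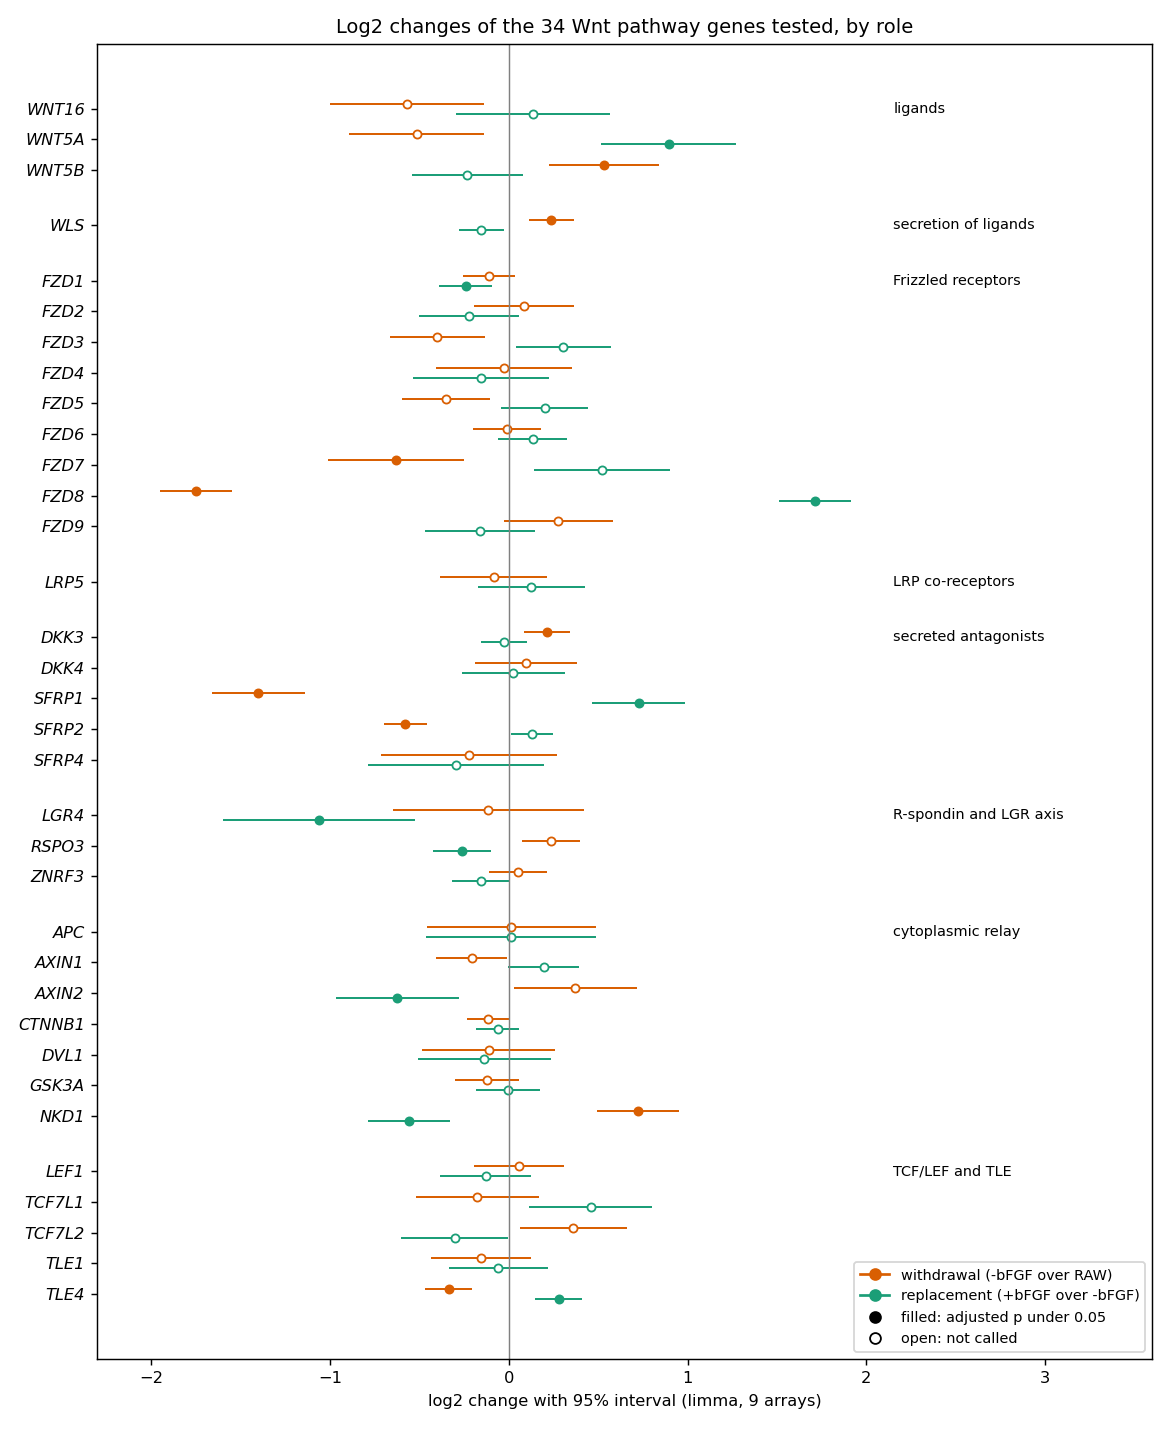
Log2 changes of the 34 tested Wnt pathway genes on withdrawal (orange) and replacement (green), with 95% intervals from limma that are not adjusted for the number of genes. Filled points are called at an adjusted p under 0.05. FZD8 and SFRP1 lie farthest to the left on withdrawal, and LGR4 lies farthest to the left on replacement.

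Ligands were mostly dim. Of 18 WNT genes, 5 lay above the array background on all 9 arrays (WNT5A, WNT5B, WNT16, WNT11 and WNT9A), 10 did so on some arrays and 3 on none (WNT4, WNT8B and WNT10A). The background was the 95th percentile of 687 probe sets for non-chicken sequences and lay between 29.8 and 39.5 from array to array. Only WNT5A, WNT5B and WNT16 were bright enough to be tested, and for the other 15 a value near background on an array does not show that a transcript was absent. Of the untested ligands above background throughout, WNT11 had intensities of 69.7, 81.4 and 97 in RAW, 46.2, 60.4 and 87.3 in -bFGF, and 53.6, 76.9 and 64.4 in +bFGF, and WNT9A had 52.6, 56.1 and 49.6 in RAW, 48.9, 48.5 and 100.1 in -bFGF, and 67.5, 77 and 72.4 in +bFGF. The 3 groups overlapped for WNT11. For WNT9A all +bFGF arrays were above all RAW arrays, and a single -bFGF array stood apart from the others of its group.

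WNT5A, a ligand best known for beta-catenin-independent signalling, had intensities of 231, 156 and 168 in RAW, 122, 125 and 136 in -bFGF, and 260.1, 253 and 203 in +bFGF. All 3 +bFGF arrays were above all -bFGF arrays, and the RAW arrays lay above the -bFGF arrays as well. The log2 change was -0.51 on withdrawal (SE 0.173, adjusted p = 0.076), which was not called. On replacement WNT5A rose by 0.90 (SE 0.173, adjusted p = 0.00592). WNT5B, its close paralog, had 213, 205 and 229 in RAW, 318, 301 and 317 in -bFGF, and 224, 329 and 254 in +bFGF. Here all -bFGF arrays were above all RAW arrays, and the +bFGF arrays spread over both ranges. WNT5B rose by 0.53 on withdrawal (SE 0.141, adjusted p = 0.0284), and its change on replacement was -0.23 (adjusted p = 0.39). The WNT5B call was lost without RAW 1, RAW 2 or any 1 of the -bFGF arrays, with adjusted p between 0.067 and 0.0921, and with no intensity filter, 8 of 19 alternatives in all. WNT16 had 113, 142 and 142 in RAW, 90.3, 85.3 and 90.4 in -bFGF, and 119, 85.5 and 90.5 in +bFGF, with the RAW arrays above all -bFGF arrays, and its log2 change of -0.57 on withdrawal missed the threshold (adjusted p = 0.0847).

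**Figure D2:**
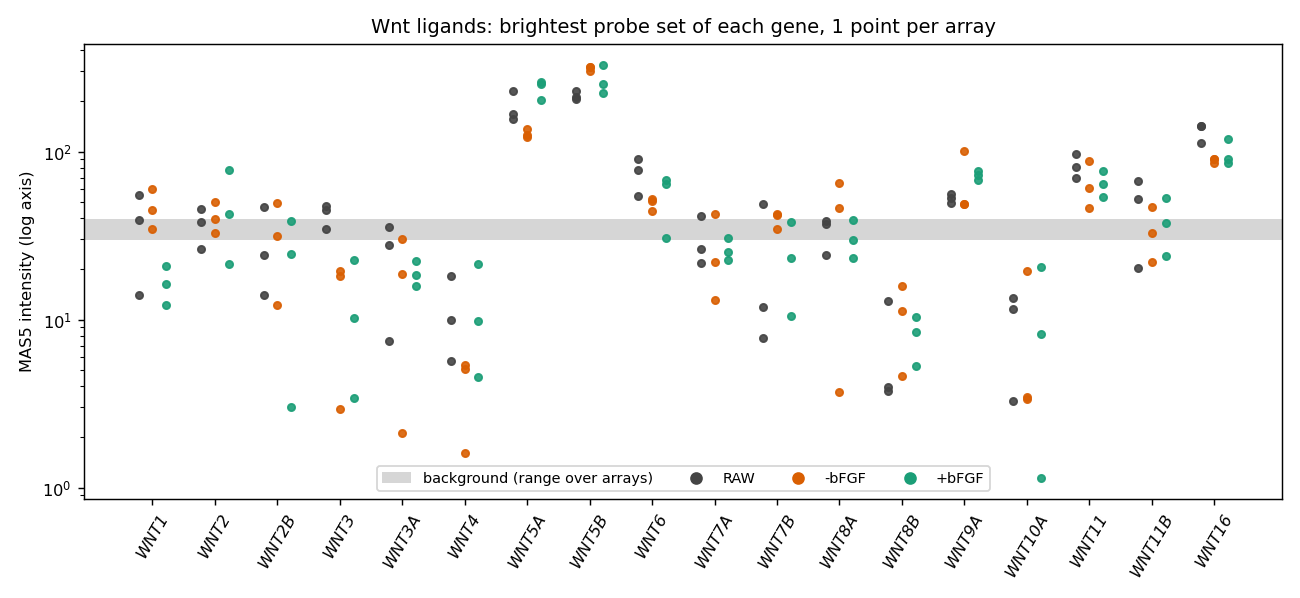
MAS5 intensity (log axis) of the 18 Wnt ligand genes on each of the 9 arrays, 1 point per array, with the range of the array background as a grey band. WNT5A, WNT5B and WNT16 stand clear of the band on every array, and most other ligands lie in or under it.

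WLS, the transmembrane carrier that Wnt ligands need to leave the cell, had intensities of 4396, 4360.5 and 4099 in RAW, 4843, 4926 and 5402 in -bFGF, and 4497, 4581 and 4557 in +bFGF. The -bFGF arrays were the highest, above all RAW and all +bFGF arrays. WLS rose by 0.24 on withdrawal (SE 0.0563, adjusted p = 0.0163), a 1.18-fold difference, and its change of -0.15 on replacement was not called (adjusted p = 0.137). The rise was not called without RAW 3 (adjusted p = 0.0586) or without -bFGF 3 (adjusted p = 0.0732), without the intensity trend of the variances or by the criteria of the study's methods.

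Among 10 Frizzled receptor genes, 9 were tested and only FZD10 was too dim. FZD8 and FZD7 fell on withdrawal, FZD8 rose and FZD1 fell on replacement, and the other 6 (FZD2, FZD3, FZD4, FZD5, FZD6 and FZD9) were called in neither. FZD8 had 1787, 2049 and 1912 in RAW, 543, 579 and 588 in -bFGF, and 2159, 1675 and 1798 in +bFGF. The -bFGF arrays lay far below every array of the other groups, and the RAW and +bFGF arrays overlapped. On withdrawal FZD8 fell by 1.75 on the log2 scale (SE 0.0911, adjusted p = 5.12e-08), and on replacement it rose by 1.71 (SE 0.0911, adjusted p = 4.86e-08). The net change was -0.04 (95% interval -0.23 to 0.16, adjusted p = 0.881). The other FZD8 probe set was near background, with group means of 48.6, 41.5 and 36.3 in RAW, -bFGF and +bFGF. When the log2 values of both were averaged, the rise on replacement became 0.75 and was no longer called (adjusted p = 0.065).

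FZD7, a prominent Wnt receptor of human embryonic stem cells, had 224, 257 and 172 in RAW, 118, 156 and 144 in -bFGF, and 194, 184 and 220.4 in +bFGF. The -bFGF arrays lay below all RAW and all +bFGF arrays. On withdrawal FZD7 fell by 0.63 on the log2 scale (SE 0.175, adjusted p = 0.0346), and the change of 0.52 on replacement was not called (adjusted p = 0.0992). The call was lost without RAW 1, RAW 2, -bFGF 1 or -bFGF 3 (adjusted p between 0.0719 and 0.146) and without the intensity filter (adjusted p = 0.0709), and under 8 of 18 alternatives in all. FZD3, needed for axon guidance and planar polarity in the mouse, had 506, 527 and 452 in RAW, 315, 412 and 403 in -bFGF, and 455, 511 and 425 in +bFGF. Its log2 change of -0.40 on withdrawal lay just outside the threshold (adjusted p = 0.0504), while a second, dimmer FZD3 probe set was called fallen by 0.49 (adjusted p = 0.0151). FZD5 had 392, 434 and 369 in RAW, 292, 339 and 306 in -bFGF, and 393, 349 and 336 in +bFGF, and its log2 change of -0.35 was not called (adjusted p = 0.0612).

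FZD1 had 1747, 1933 and 1931 in RAW, 1682, 1686 and 1826 in -bFGF, and 1471, 1414 and 1509 in +bFGF. RAW and -bFGF arrays overlapped and the +bFGF arrays were below both. The change was -0.11 on withdrawal (adjusted p = 0.324), -0.24 on replacement (SE 0.0659, adjusted p = 0.0442) and -0.35 in the net change (adjusted p = 0.0136). The replacement call was lost without RAW 2 and without any 1 of the -bFGF or +bFGF arrays (adjusted p between 0.0578 and 0.17), and the net call without RAW 2 or +bFGF 2 (0.0661 and 0.0599). The replacement call was also lost with no intensity filter (0.0722), quantile normalization (0.0604), centring on the 75th percentile (0.0862), no intensity trend (0.103), only the 2 groups (0.0592) and the criteria of the study's methods, 15 of 20 alternatives in all, and the net call was lost in 5 of 20. FZD6, the brightest Frizzled probe set that was never called, had 561, 517 and 537 in RAW, 549.6, 549 and 504 in -bFGF, and 627, 573 and 558 in +bFGF, with log2 changes of -0.01 and 0.13. Of the LRP co-receptors, LRP6 was too dim to be tested. LRP5 had 302, 346 and 282 in RAW, 251, 312 and 316 in -bFGF, and 363, 314 and 281 in +bFGF, with all groups overlapping, and log2 changes of -0.08 (95% interval -0.38 to 0.21) and 0.13 (-0.17 to 0.42).

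The secreted antagonists showed the second large fall. SFRP1, which binds Wnt proteins outside the cell, had 774, 734 and 904 in RAW, 270.5, 338 and 306 in -bFGF, and 512, 554 and 445 in +bFGF. No array of any group overlapped those of another, with RAW highest, +bFGF between and -bFGF lowest. SFRP1 fell by 1.40 on the log2 scale on withdrawal, 2.64-fold (SE 0.118, adjusted p = 4.51e-06), and rose by 0.73 on replacement (SE 0.118, adjusted p = 0.00173). Its net change was -0.67 (SE 0.118, adjusted p = 0.00856). A second SFRP1 probe set gave -1.23 (adjusted p = 2.67e-05), 0.68 (0.0041) and -0.55 (0.0338).

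SFRP2, a related antagonist, had 7242, 7164 and 7223 in RAW, 5037, 4683 and 4771 in -bFGF, and 5394, 5016 and 5457 in +bFGF. The RAW arrays stood above all 6 later arrays, and the -bFGF and +bFGF arrays overlapped. On withdrawal SFRP2 fell by 0.58 on the log2 scale (SE 0.0527, adjusted p = 9.79e-06). The change on replacement was 0.13 (95% interval 0.02 to 0.24, adjusted p = 0.175) and was not called, and the net change was -0.45 (adjusted p = 0.000914). SFRP2 is among the genes that the study itself listed from these arrays, as are GJA1, CCND1, CCND2, MYCN, CTBP2 and COL1A2 below. The directions of all these genes here are therefore not independent evidence. SFRP4, another of these antagonists, was tested and not called, and SFRP5 was above background on no array.

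Among fibroblast and mesenchyme markers, COL1A2, a chain of type I collagen, moved with the SFRP1 and FZD8 values. Its mean intensity was 2385 in RAW, 263 in -bFGF and 1865 in +bFGF, 9.03-fold down and then 7.05-fold up. The summed intensity of 11 such markers was 7970 to 9089 in RAW, 6021 to 6286 in -bFGF and 6766 to 7885 in +bFGF, and 6 of the 11 lay above background on all arrays. Without COL1A2 the sum of the other 10 was 5634 to 6461 in RAW, 5760 to 6009 in -bFGF and 5087 to 5766 in +bFGF, with means of 6117, 5864 and 5329. Most of that sum was COL3A1, with means of 4235, 4418 and 4000, so it does not show how the dimmer markers moved. On withdrawal COL1A2, COL1A1, FN1 and PRRX1 fell, and on replacement COL1A2 rose. COL3A1 was not called in either, with log2 changes of 0.06 and -0.15, and LUM, DCN and POSTN were above background on no array. The part of such cells in the SFRP and FZD values was not tested.

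DKK proteins are the other antagonists. In vertebrates, DKK1, DKK2 and DKK4 act on the LRP co-receptors, and DKK3 is a divergent family member that does not act in this way. DKK3 had 1567, 1510.1 and 1602 in RAW, 1775, 1816 and 1843 in -bFGF, and 1817, 1762 and 1749 in +bFGF. Its RAW arrays were below all 6 later arrays. It rose by 0.22 on withdrawal, 1.16-fold (SE 0.0573, adjusted p = 0.0285), and its change on replacement was -0.03 (adjusted p = 0.831). The call was lost without RAW 1, RAW 2 or any 1 of the -bFGF arrays (adjusted p between 0.0567 and 0.112) and under 9 of 20 alternatives in all, which include no intensity trend and the criteria of the study's methods. DKK4 had 296, 334 and 415 in RAW, 399, 349 and 360.5 in -bFGF, and 404, 337 and 389 in +bFGF, with all groups overlapping and log2 changes of 0.10 and 0.03. DKK2 was too dim to be tested.

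The R-spondins bind LGR receptors and remove the ubiquitin ligases ZNRF3 and RNF43, which otherwise clear Frizzled receptors from the cell surface. LGR4, one of these R-spondin receptors, had 606, 742 and 492 in RAW, 564, 458 and 676 in -bFGF, and 434, 221 and 200.1 in +bFGF. RAW and -bFGF arrays overlapped widely, and the +bFGF arrays lay below all others, although the highest of them came close to the lowest -bFGF array. The change was -0.11 on withdrawal (adjusted p = 0.819), -1.06 on replacement (SE 0.246, adjusted p = 0.0185) and -1.18 in the net change (adjusted p = 0.0213). The replacement call was lost without -bFGF 1, -bFGF 3, +bFGF 2 or +bFGF 3 (adjusted p between 0.0546 and 0.0855), and the net call without RAW 1, RAW 2, +bFGF 2 or +bFGF 3 (0.0787 to 0.0967). Without the intensity trend of the variances both were lost as well (0.0841 and 0.104).

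RSPO3, a ligand of this axis, had 3319, 3314 and 2953 in RAW, 3839, 3922 and 3541 in -bFGF, and 3377, 3188 and 2872 in +bFGF. The -bFGF arrays were above all RAW and all +bFGF arrays. The change of 0.24 on withdrawal missed the threshold (SE 0.0724, adjusted p = 0.0518) and passed it without +bFGF 1 (0.0348) or +bFGF 3 (0.0369). The change of -0.26 on replacement passed it narrowly (adjusted p = 0.0464). It no longer did so without RAW 1, RAW 2, any 1 of the -bFGF arrays, +bFGF 2 or +bFGF 3 (adjusted p between 0.0503 and 0.175). The call was also lost with no intensity filter (0.0908), centring on the 75th percentile (0.09), no intensity trend (0.138), only the 2 groups (0.059), the mean of its probe sets (0.452) and the criteria of the study's methods, 14 of 20 alternatives in all. ZNRF3 had 879, 916 and 893 in RAW, 925, 904 and 958 in -bFGF, and 810.2, 896 and 801 in +bFGF, with log2 changes of 0.05 (adjusted p = 0.704) and -0.15 (adjusted p = 0.25). LGR5 and RSPO1 were too dim to be tested.

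Inside the cell, the feedback inhibitors NKD1 and AXIN2, which canonical signalling induces in vertebrates, were called, NKD1 in both comparisons and AXIN2 on replacement. They are not the only such inhibitors. NOTUM, a secreted one on the target list below, moved the other way, by -0.25 on withdrawal (not called) and 0.60 on replacement (called). NKD1, which acts on Dishevelled, had 351, 360.2 and 362 in RAW, 567, 573 and 634 in -bFGF, and 357, 457 and 395 in +bFGF. The -bFGF arrays were above all others, and the RAW and +bFGF arrays overlapped. NKD1 rose by 0.72 on withdrawal, 1.65-fold (SE 0.105, adjusted p = 0.00058), and changed by -0.56 on replacement (SE 0.105, adjusted p = 0.00485). Its net change was 0.17 (adjusted p = 0.44). AXIN2, a scaffold of the destruction complex, had 187, 232 and 206 in RAW, 271, 294 and 243 in -bFGF, and 213, 169 and 148 in +bFGF. The -bFGF arrays were above all RAW and all +bFGF arrays. The change on withdrawal was 0.37 (adjusted p = 0.158), and on replacement AXIN2 fell by 0.62 on the log2 scale (SE 0.158, adjusted p = 0.0306). The AXIN2 call was lost without -bFGF 1, -bFGF 2, +bFGF 2 or +bFGF 3 (adjusted p between 0.0812 and 0.13) and without the intensity filter (0.0596). With the mean of its probe sets the change was -0.49 and was not called (0.0757), and 7 of 19 alternatives in all ended the call.

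The remaining parts of the relay were not called in any comparison. CTNNB1 (beta-catenin) had 13582, 13523 and 12789 in RAW, 12742, 12272 and 11861 in -bFGF, and 12305, 11723 and 11285 in +bFGF. All RAW arrays were above all -bFGF arrays, and the log2 changes were -0.11 (95% interval -0.23 to -0.0012, adjusted p = 0.194) and -0.06 (-0.18 to 0.05, adjusted p = 0.552). The transcript level says nothing of the protein, whose stability is the regulated step in this pathway. AXIN1, APC, GSK3A and DVL1 had log2 changes of -0.21, 0.02, -0.12 and -0.11 on withdrawal and of 0.20, 0.01, -0.0049 and -0.14 on replacement. DVL2 was above background on all arrays but under the filter.

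Among the nuclear partners, TLE4 was called. TLE proteins bind TCF and LEF factors and keep their targets silent without beta-catenin. TLE4 had 2739.8, 2815 and 2759.8 in RAW, 2199.8, 2165 and 2222 in -bFGF, and 2618, 2528 and 2859 in +bFGF. The -bFGF arrays were below all RAW and all +bFGF arrays. TLE4 fell by 0.34 on the log2 scale on withdrawal, 1.26-fold (SE 0.0586, adjusted p = 0.00237), and rose by 0.28 on replacement (SE 0.0586, adjusted p = 0.0101). The replacement call was lost without -bFGF 2 (adjusted p = 0.0541), and a second TLE4 probe set gave -0.14 (0.269) and 0.07 (0.647). LEF1 had 495, 489 and 473 in RAW, 459.8, 550.4 and 511 in -bFGF, and 426, 552 and 421 in +bFGF, with all groups overlapping and log2 changes of 0.06 and -0.13. TLE1, TCF7L1 and TCF7L2 were not called either. For TCF7L1 the change on replacement was 0.46 (adjusted p = 0.106).

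**Figure D3:**
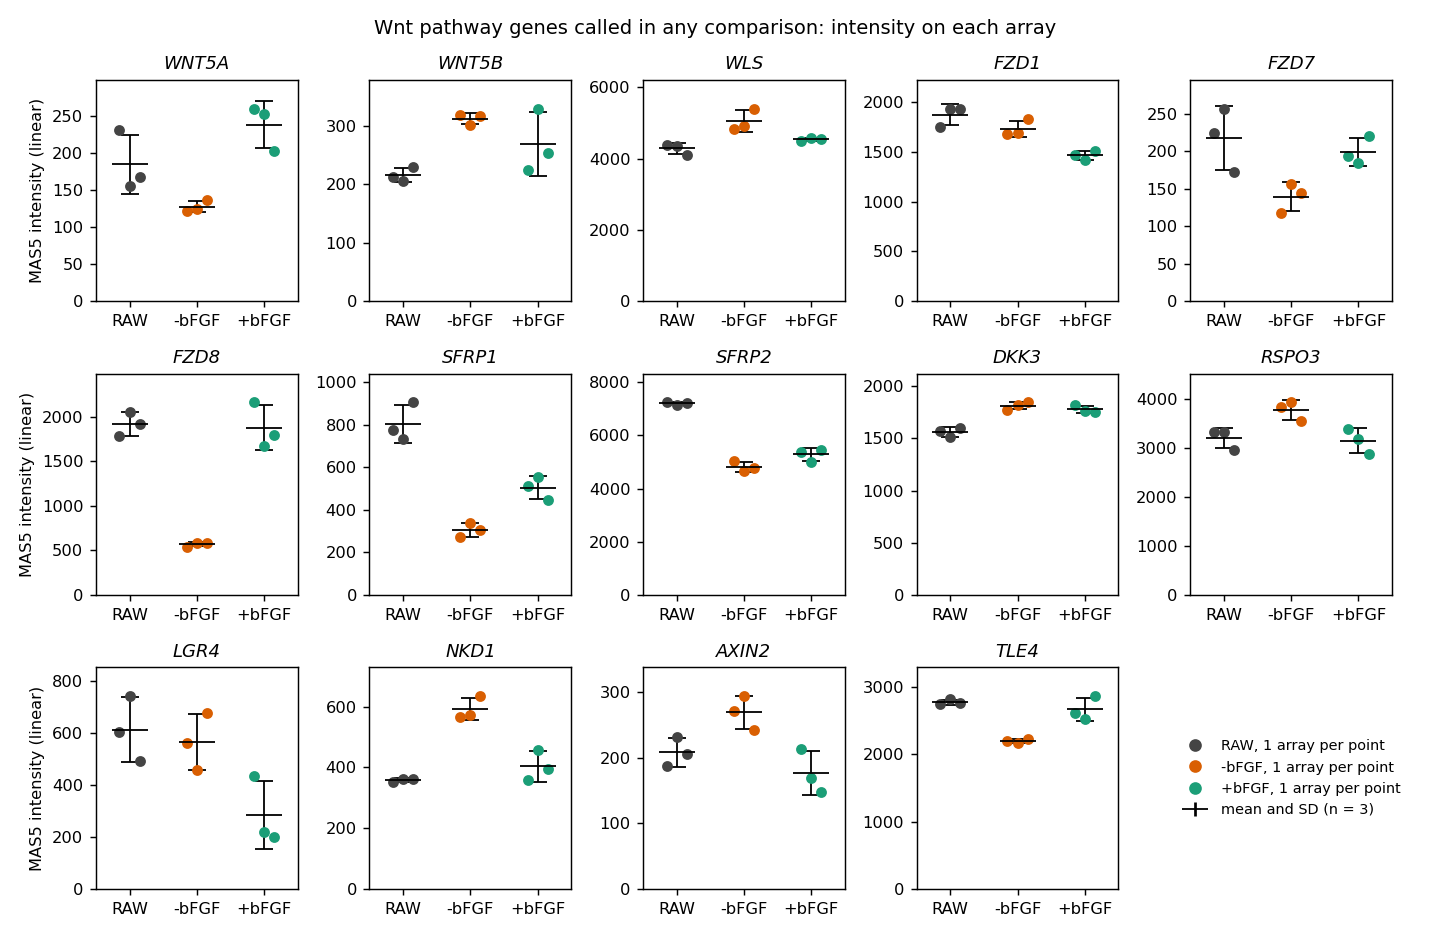
MAS5 intensity (linear axis from 0) of the 14 Wnt pathway genes called in at least 1 comparison, with 1 point per array and the mean and SD of 3 arrays for RAW, -bFGF and +bFGF. FZD8, TLE4 and FZD7 are lowest in -bFGF, NKD1, AXIN2 and RSPO3 are highest there, and SFRP2 stays under its RAW level in +bFGF.

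Across roles, 14 of the 34 tested members were called in at least 1 comparison and 20 in none. Log2 changes of those 20 ran from -0.57 to 0.36 on withdrawal, with adjusted p from 0.0504 upwards, and from -0.30 to 0.46 on replacement, with adjusted p from 0.106 upwards. Against a 1.2-fold change instead of no change, the members still called were FZD8, SFRP1, SFRP2 and NKD1 on withdrawal and FZD8 on replacement. In 6 of the 14 called members a second probe set was bright enough to be tested, for 10 called changes in all. The second probe set had the same sign in all 10 and was called in 3, all of them for SFRP1. The other 8 called members rest on 1 tested probe set. The probe sets of NKD1, WNT5A, WLS, LEF1, APC and TLE1 used here are of a kind that can match more than 1 transcript. So are those of GJA1, CCND1, FN1, KLF5 and SALL4 among the target genes below, and that of DACT2 among the other components. Those of FZD8, DKK3 and TBXT are of a kind that can match several variants of 1 gene.

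Probe sets of TCF7L2, the TCF factor most studied in the adult gut of mammals, disagreed in sign. The brightest gave 0.36 on withdrawal (adjusted p = 0.111), and the 3 others that were tested gave -0.27, -0.35 and -0.65 (adjusted p = 0.392, 0.251 and 0.0777). None of the 4 was called, so no direction is given for this gene.

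**Figure D4:**
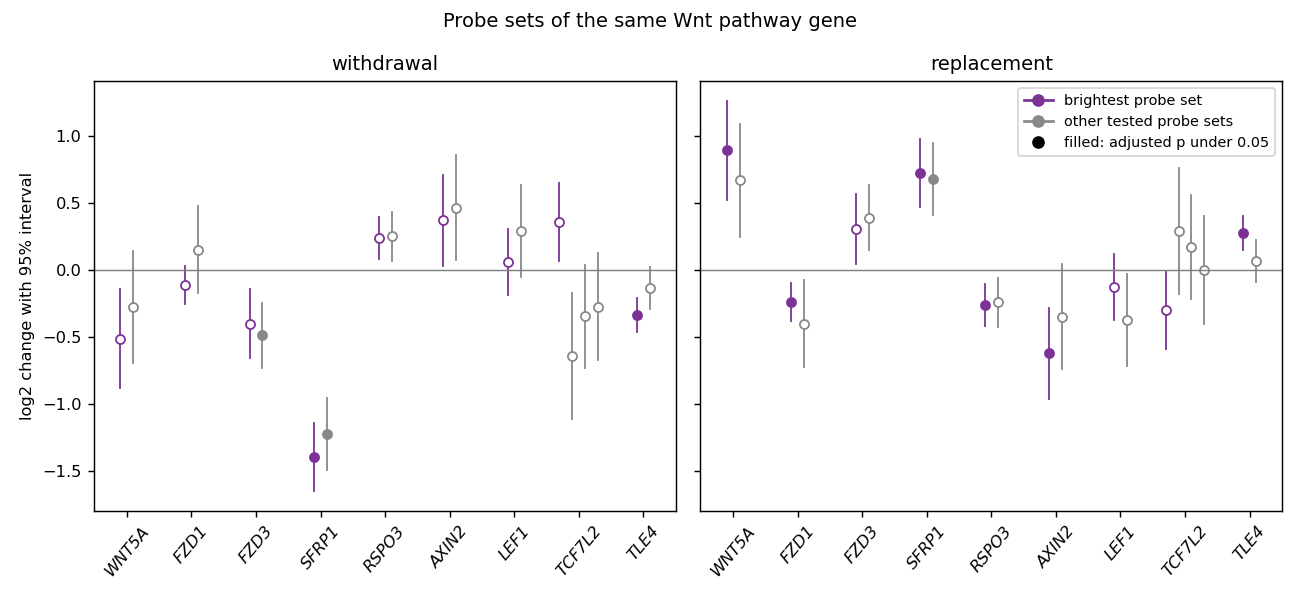
Log2 changes with 95% intervals (not adjusted) of the brightest probe set (purple) and the other tested probe sets (grey) of 9 Wnt pathway genes, on withdrawal and replacement. Both SFRP1 probe sets lie well below 0 on withdrawal and above 0 on replacement, and the TCF7L2 probe sets lie on both sides of 0 on withdrawal.

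A wider list of 76 other Wnt pathway components was examined, of which 63 had a probe set and 49 were tested. On withdrawal 8 were called, 16.3% beside 12.8% of all genes, with 4 fallen (SHISA2, CTBP2, ROR1 and FBXW11) and 4 risen (RSPO2, DACT2, BCL9 and FRZB). On replacement 9 were called, 18.4% beside 8.23%, with 6 risen, led by ROR2, NOTUM, SHISA2 and ROR1, and 3 fallen (DACT2, BCL9 and AES). AES changed by -0.48 (adjusted p = 0.0446), and averaging its probe sets gave -0.01 (adjusted p = 0.99). The AES call was also lost with no filter (0.0937), no intensity trend (0.146), only the 2 groups (0.075) and the criteria of the study's methods. Most single-array omissions ended it too, and without -bFGF 3 the change was -0.27 (0.0702). SHISA2, whose frog relative Shisa holds Frizzled and FGF receptors back inside the cell, had 6172, 5603 and 5846 in RAW, 3186, 3187 and 3271 in -bFGF, and 4843, 4819 and 4836 in +bFGF. No array of any group overlapped those of another. On withdrawal it fell by 0.87 on the log2 scale (SE 0.0517, adjusted p = 1.81e-07), and on replacement it rose by 0.59 (SE 0.0517, adjusted p = 6.79e-06). Its net change was -0.28 (adjusted p = 0.0126).

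Both ROR receptors, which bind WNT5A, rose on replacement. ROR2 had 187, 159 and 187 in RAW, 138, 125 and 144 in -bFGF, and 243, 234 and 227 in +bFGF, with all +bFGF arrays above all others, and rose by 0.79 (SE 0.139, adjusted p = 0.00305) after a change of -0.39 that was not called on withdrawal (adjusted p = 0.0934). ROR1 had 590.0, 523 and 471 in RAW, 419, 387 and 302 in -bFGF, and 571, 519 and 510.3 in +bFGF, and its -bFGF arrays were below all others. ROR1 fell by 0.52 on the log2 scale on withdrawal (adjusted p = 0.0183) and rose by 0.54 on replacement (adjusted p = 0.0196). Its withdrawal call was lost without RAW 1 (0.078), RAW 2 (0.0531) or -bFGF 3 (0.0713), and by the criteria of the study's methods. The replacement call of ROR1 was lost without -bFGF 3 (0.0811) or +bFGF 1 (0.0632). Without the intensity trend both were lost (0.0508 and 0.0567). NOTUM, a secreted enzyme that inactivates Wnt proteins, had 820.2, 789 and 752 in RAW, 673, 666 and 641 in -bFGF, and 1088, 1003 and 925 in +bFGF, with no overlap between any groups. Its changes were -0.25 on withdrawal (adjusted p = 0.0591, not called), 0.60 on replacement (adjusted p = 0.000307) and 0.35 in the net change (adjusted p = 0.0329). The net call of NOTUM was lost with the mean of its probe sets (change of 0.24, adjusted p = 0.337). It was also lost with only the 2 groups (0.0736) and by the criteria of the study's methods. Leaving out any 1 of the RAW arrays, -bFGF 2, +bFGF 1 or +bFGF 2 ended it too (0.0561 to 0.0999). BCL9, a coactivator that binds beta-catenin, had 1271, 1382 and 1480.3 in RAW, 1912, 1841 and 1993 in -bFGF, and 1456, 1297 and 1293 in +bFGF, and all -bFGF arrays were above all others. It changed by 0.48 (adjusted p = 0.00109) and -0.51 (adjusted p = 0.000784).

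The counts of this wider list also moved with single arrays. The 4 fallen components on withdrawal became 2 without RAW 1, RAW 2 or -bFGF 3 and 7 without +bFGF 3. The 4 risen became 1 without RAW 1, RAW 2, -bFGF 1 or -bFGF 3, and 2 without -bFGF 2 or +bFGF 2. RSPO2 rose by 0.82 on withdrawal (adjusted p = 0.0436) with 54.9, 57.8 and 76.7 in RAW, 121, 110.3 and 99.6 in -bFGF, and 67.4, 108 and 85.9 in +bFGF. The mean RAW intensity of RSPO2, 63.1, was under the filter. Its call was lost with no filter (adjusted p = 0.119), with centring on the 75th percentile (0.0506), by the criteria of the study's methods, and without RAW 1, RAW 2, any 1 of the -bFGF arrays or +bFGF 3 (0.0547 to 0.135). Calls that held when any 1 array was left out were those of BCL9, CTBP2 and SHISA2 on withdrawal (3 of 8) and of these 3 with DACT2, NOTUM and ROR2 on replacement (6 of 9), and 0 of 2 in the net change (SHISA2 and NOTUM).

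Genes widely described as targets of beta-catenin and TCF or LEF in vertebrates moved in both directions. Of 45 listed, 40 had a probe set and 26 were tested, and the list was written when values of FST, MYC, TBXT, GJA1, CCND1 and FN1 on these arrays were already known. On withdrawal 13 were called, 50% beside 12.8% of all genes, with 9 fallen and 4 risen. On replacement 14 were called, 53.8% beside 8.23%, with 9 risen and 5 fallen. The genes with known values were all called on withdrawal, and all but FN1 on replacement, so both shares come partly from known results. CCND2, called in both, and MYCN, called on withdrawal, are also among the genes that the study itself listed. MYC, counted in both shares, was tested only through the group where it was high. Many of these genes are also controlled by other signals, and the counts are not a readout of Wnt activity. The 9 fallen on withdrawal became 5 without RAW 1, RAW 2 or -bFGF 3. The 5 fallen on replacement became 3 without -bFGF 2, 2 without +bFGF 3 and 1 without -bFGF 3. Leaving out any 1 array kept 8 of 13 withdrawal calls (CCND1, CCND2, FST, GJA1, MYC, PPARD, SALL4 and TBXT). For replacement the calls kept in this way were 7 of 14 (CCND1, CCND2, FST, GJA1, NOTUM, TBX6 and TBXT).

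Among the targets that fell without bFGF were GJA1 (the gap junction protein connexin 43), TBXT (brachyury, a factor of the early mesoderm), GBX2 and TBX6. GJA1 had 2798, 2605 and 2771 in RAW, 1126, 1089 and 1118 in -bFGF, and 2718, 3003 and 3588 in +bFGF. It fell by 1.29 on the log2 scale (adjusted p = 4.7e-07) and rose by 1.47 on replacement (adjusted p = 9.63e-08). TBXT, GBX2 and TBX6 had changes of -0.92, -0.69 and -0.62 on withdrawal and rose by 1.04, 0.82 and 1.42 on replacement. The GBX2 withdrawal call was lost without any 1 of the RAW arrays, -bFGF 1 or -bFGF 3 (adjusted p between 0.062 and 0.112). Its replacement call was lost without -bFGF 1, -bFGF 3 or +bFGF 2 (0.0573 to 0.07). For TBX6 the withdrawal call was lost without RAW 1, RAW 2, -bFGF 2 or -bFGF 3 (0.0577 to 0.0904). TBX6, a factor of paraxial mesoderm, had 288, 269 and 209 in RAW, 196, 168 and 135 in -bFGF, and 442, 409 and 466 in +bFGF, and its +bFGF arrays were above all others. CCND1 (cyclin D1) had 3948, 4041 and 4445 in RAW, 2836, 2720.5 and 2677 in -bFGF, and 4876, 5397 and 5490.1 in +bFGF, changed by -0.59 on withdrawal (adjusted p = 4.55e-05) and rose by 0.94 on replacement (adjusted p = 5.55e-07). The 4 targets called risen on withdrawal were MYC, PPARD, FST and KLF5. FGF8, a signal of the FGF family on the same list, was too dim on average to be tested and is named after its values were seen. It had 37.6, 22.2 and 32 in RAW, 116, 136 and 143 in -bFGF, and 40.4, 22.3 and 55 in +bFGF, with 1 of the 3 RAW and 2 of the 3 +bFGF arrays above background and all -bFGF arrays above all others. With no filter FGF8 had log2 changes of 2.13 on withdrawal (adjusted p = 0.00811) and -1.83 on replacement (adjusted p = 0.0254). Since some RAW and +bFGF arrays were not above background, the size of both FGF8 changes is uncertain.

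MYC, a growth-promoting transcription factor, had 64.6, 68.2 and 72.5 in RAW, 145, 123 and 161 in -bFGF, and 74.4, 77.6 and 75.8 in +bFGF. It rose by 1.05 on withdrawal (SE 0.196, adjusted p = 0.00371), with all -bFGF arrays above all others, and changed by -0.90 on replacement (adjusted p = 0.0124). The mean log2 value of its RAW and +bFGF arrays, 6.17, was under the filter of 6.18, so MYC was tested only through the group where it was high. With no filter the adjusted p was 0.0156 on withdrawal and 0.0463 on replacement, and the replacement call was lost without -bFGF 3 (0.0751). FST, an inhibitor of activin, had 289.7, 281 and 261 in RAW, 428, 379 and 439 in -bFGF, and 145, 154 and 182 in +bFGF. Its -bFGF arrays were the highest and its +bFGF arrays the lowest, with changes of 0.58 (adjusted p = 0.00953), -1.38 (adjusted p = 9.18e-06) and -0.80 in the net change (adjusted p = 0.00482). PPARD, a nuclear receptor, rose by 0.62 and changed by -0.52 on replacement, and CD44, a cell surface receptor for hyaluronan, changed by -0.74 on replacement (adjusted p = 0.0349). The replacement call of PPARD was lost without -bFGF 2, -bFGF 3, +bFGF 1 or +bFGF 3 (adjusted p between 0.0683 and 0.129). That of CD44 was lost without -bFGF 1, -bFGF 3 or any 1 of the +bFGF arrays (0.0524 to 0.152). The CD44 call was also lost with no filter (0.0848). KLF5 rose by 0.32 on withdrawal (adjusted p = 0.0182). The KLF5 call was lost without RAW 1 or any 1 of the -bFGF arrays (adjusted p between 0.0516 and 0.0778). No intensity trend (0.0668) and the criteria of the study's methods ended it too. With the mean of its probe sets the change was 0.17 and was not called (adjusted p = 0.473). In the net change 8 targets were called, 30.8% beside 3.47% of all genes. Among them FST, FN1 and CCND1 had values that were known when the list was written. TBX6, NOTUM and CCND1 were higher, by 0.79, 0.35 and 0.34, and FST, FN1 and TNFRSF19 were among the 5 that were lower, with -0.80, -0.71 and -0.48. FN1 is also in the list of fibroblast markers. SOX9, another of the 5, had 217, 225 and 295 in RAW and 82.3, 129 and 16.9 in +bFGF, the last below background, so that the size of its change is uncertain. Its log2 change of -2.11 (SE 0.526, adjusted p = 0.0495) became -1.24 without +bFGF 3 (0.0325), and the call was lost with no filter (0.109) and on leaving out a single RAW or -bFGF array, whichever it was (0.062 to 0.128). The net calls that held when any 1 array was left out were those of FST and FN1, 2 of 8.

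**Figure D5:**
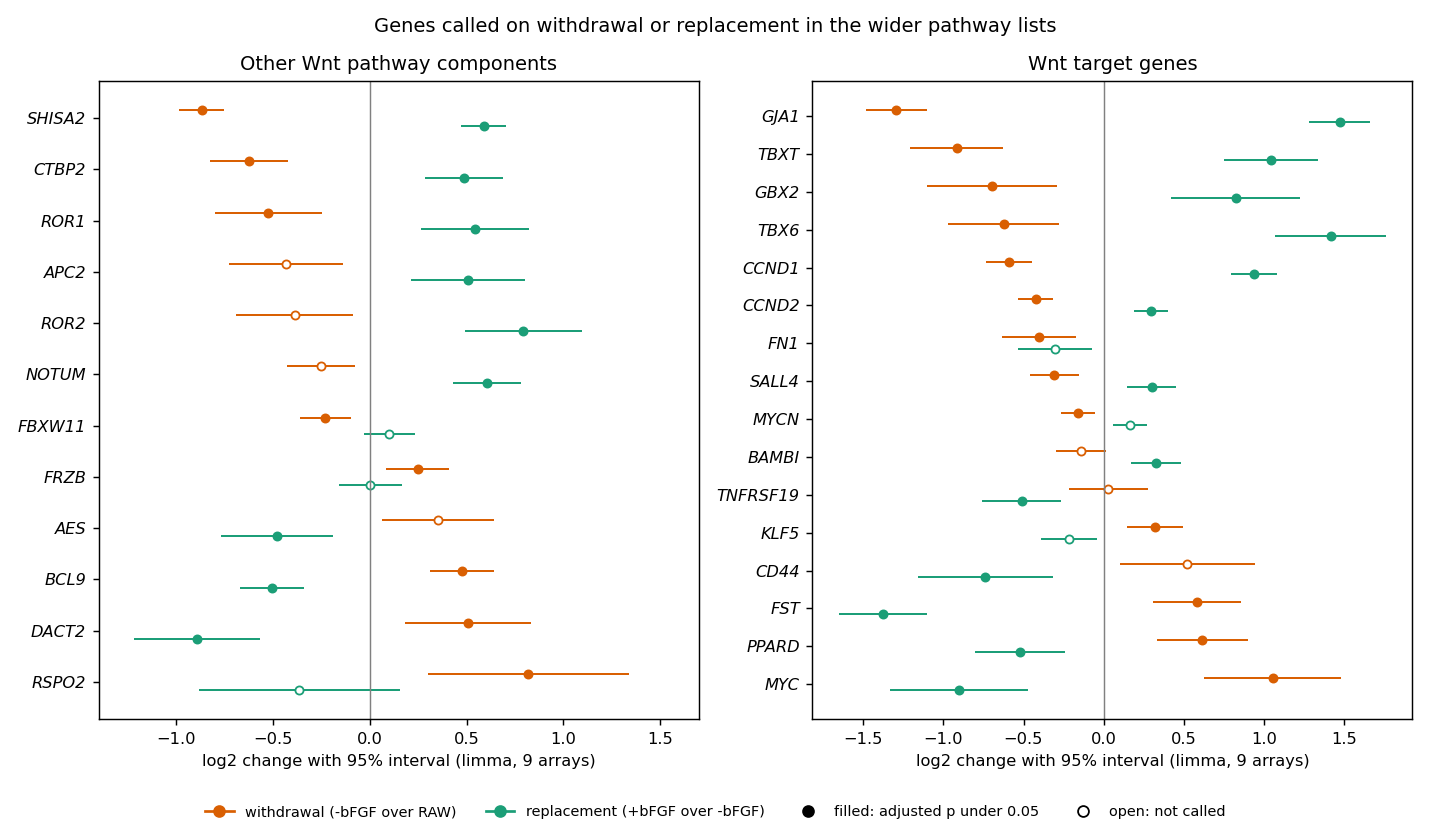
Log2 changes with 95% intervals (not adjusted) of the other Wnt pathway components (left) and Wnt target genes (right) called on withdrawal (orange) or replacement (green), filled where called. NOTUM belongs to both lists and is drawn on the left. SHISA2, CTBP2 and GJA1 lie below 0 on withdrawal and above 0 on replacement, and BCL9, DACT2 and MYC lie the other way round.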

How the data were processed

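Transcripts of cultured chicken PGCs were measured by the authors on Affymetrix GeneChip Chicken Genome arrays, with biotinylated cRNA from 6 ug of total RNA, in the groups RAW, -bFGF and +bFGF with 3 arrays each. The deposited values are linear MAS5 intensities, 1 per probe set and array, and the version of MAS5 is not given in the sources used here. Array medians were 71.6 to 82.6 at an equal trimmed mean of 500.1 (2% left out at each end), so no further normalization was applied. MAS5 subtracts a mismatch signal, which makes low intensities noisy, and the number of arrays limits the precision. The comparisons of the study itself used probe-level data in dChip and were not used here.

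Of 38535 probe sets, 96 array controls were left out. The supplied annotation gives 1 gene symbol for 27178 of all 38535, several for 177 and none for 11180. All 114 Wnt probe sets have a gene ID in the newer RefSeq gene table, with the same symbol. No coordinates are given, since the files hold none. GSK3B, RNF43 and PORCN were not analysed here.

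Groups came from the sample labels. The log2 of each intensity was taken with no offset. A linear model of all 9 arrays, with a mean for each group, was fitted with limma 3.58.1 (R 4.3.3), with moderated variances that follow intensity, and 2-sided tests were made for the 3 comparisons. Probe sets at or above the median mean log2 value, 19220, were tested, and Benjamini-Hochberg adjustment covered them within a comparison. The fit was tested on simulated data. Lists are described by counts and medians over the brightest probe set of each gene, 9125 genes in all.

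The text names every member called in any comparison and the brightest uncalled member of each role, with other members as examples. Of the wider lists it names up to 4 called genes in each direction per comparison. The members and lists were chosen with earlier results of these data known. Alternatives were the filter (none, or the 75th percentile), the scaling (quantile normalization, or centring on each array's 75th percentile), 50 added before the logarithm, variances without a trend, a fit of only the 2 groups compared, a block for replicate number, the mean of a gene's probe sets, a threshold of 1.2-fold in the test, leaving out each array, and the criteria of the study's methods (lower bound of the 90% interval of the fold over 1.2, difference of means over 50), applied to linear intensities.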

Additional observations from a re-analysis of the deposited data

How the results depend on the processing

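Of 22 called changes of the named members, the sign was the same under every alternative run. Over 63 changes and 1218 alternative values, 93 lost a call, 8 gained one and 0 turned a called sign. Several alternatives alter only the filter, the variances, the test or an array of the third group. They leave the log2 change as it was and could not turn a sign. Only called changes were counted as turned, and some uncalled ones crossed 0. On withdrawal FZD1 ran from -0.16 to 0.02 and LRP5 from -0.15 to 0.13. The cause of the changes in calls was not tested.

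Against a 1.2-fold change, a stricter test by construction, members fallen and risen on withdrawal numbered 3 and 1, on replacement 0 and 1, and fallen in the net change 0. For the other components the counts were 2 and 0 on withdrawal and 1 and 2 on replacement, and for the targets 3 and 1, then 1 and 5. Over all 19220 probe sets this test called 216 fallen and 125 risen on withdrawal, against 1025 and 1038 in the main fit. On replacement it called 104 and 178, against 657 and 647, and in the net change 11 fallen, against 335. With the mean of a gene's probe sets, 3 members fell on withdrawal, 3 fell and 1 rose on replacement, and 1 rose in the net change (DKK3). Components then numbered 8 fallen and 1 risen on withdrawal and 1 fallen on replacement, and targets 2 risen on withdrawal and 2 fallen on replacement. Of 6505 genes tested in this way, 367 fell and 393 rose on withdrawal, 230 and 251 on replacement, and 108 and 129 in the net change. Without the intensity trend, 2 members rose on withdrawal, 2 fell on replacement and 2 fell in the net change, and 4 targets fell on withdrawal. Over all tested probe sets, 712 then fell and 712 rose on withdrawal, 505 fell on replacement and 143 fell in the net change. By the criteria of the methods, 2 members rose on withdrawal and 3 fell on replacement, and 1 component rose on withdrawal. Over 38439 probe sets those criteria gave 601 risen on withdrawal and 547 fallen on replacement. Members fallen on replacement numbered 2 with no filter, 2 with the filter at the 75th percentile, 3 with centring on the 75th percentile and 3 with only the 2 groups. Components risen on withdrawal numbered 1 with no filter, 2 with the 75th percentile filter and 1 with centring on the 75th percentile. Components fallen on withdrawal were 7 with centring and 7 with quantile normalization. With the 75th percentile filter, 1 target rose on withdrawal and 0 fell on replacement. Probe sets fallen on replacement numbered 471 of 38439 with no filter and 426 of 9610 with the 75th percentile filter. They were 476 with centring and 551 with only the 2 groups. Those risen on withdrawal numbered 720 with no filter, 813 with the 75th percentile filter and 840 with centring. Those fallen on withdrawal were 1139 with centring and 1079 with quantile normalization.

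With 1 array left out, members fallen and risen ranged over 4 to 5 and 1 to 5 on withdrawal, 1 to 5 and 3 to 5 on replacement, and 2 to 4 and 0 to 0 in the net change. Components ranged over 2 to 7 and 1 to 4 on withdrawal and 2 to 3 and 4 to 6 on replacement. Targets ranged over 5 to 11 and 3 to 4 on withdrawal and 1 to 6 and 7 to 9 on replacement. All tested probe sets ranged over 652 to 1144 fallen and 561 to 1185 risen on withdrawal. The ranges were 332 to 652 and 433 to 633 on replacement, and 112 to 363 and 88 to 244 in the net change.

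Arrays with the same replicate number did not deviate together: the correlations of their deviations ran from -0.213 to 0.0605, with 0 of 9 pairs over 0.1. With 3 arrays per group this cannot show whether arrays of the same number shared a culture. With the replicate number as a block, members fallen and risen were 4 and 3 on withdrawal, 4 and 4 on replacement and 4 and 0 in the net change, and 1 component rose on withdrawal. Over all tested probe sets the block gave 846 and 796 on withdrawal, 495 and 550 on replacement and 200 and 142 in the net change. With this block the calls of DKK3, FZD7, WNT5B and RSPO2 on withdrawal, of FZD1 on replacement and of SOX9 in the net change were not made (adjusted p = 0.0544 for DKK3, 0.0578 for FZD1, 0.0719 for RSPO2 and 0.0794 for SOX9). Also lost were DACT2 (0.0732), FRZB (0.0537) and MYCN (0.0903) on withdrawal. The same held for APC2 (0.0707) and CD44 (0.0648) on replacement and TNFRSF19 (0.0788) in the net change. RSPO3 was called risen on withdrawal with the block (0.0235). Genes under the filter, among them most ligands, were not tested in the main fit, and the size of a change near background is uncertain.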
